A study of Mus musculus with 42 samples.

Results

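The replication-dependent histone genes are the multicopy genes that supply histones to newly replicated DNA. They were taken here as every gene symbol of the RNA-seq count tables that starts with Hist1h, Hist2h, Hist3h or Hist4h, which gave 69 of 24466 symbols. Of these, 63 encode core histones (19 of H2A, 19 of H2B, 12 of H3 and 13 of H4) and 6 encode linker histone H1. RNA was sequenced from iPax7 cells, which are muscle precursors made from a mouse embryonic stem cell line that carries a doxycycline (Dox)-inducible Pax7 and sorted from embryoid bodies as PDGFαR+ Flk-1- cells. The conditions compared were iPax7 cells kept in 0.75 µg/ml Dox (+Dox, 3 replicates), iPax7 cells taken 3 days after Dox was withdrawn (-Dox, 2 replicates), and satellite cells, the stem cells of adult muscle, sorted from the muscle of Pax7-ZsGreen reporter mice (3 replicates). The +Dox and -Dox cells share the line and its transgene, from which Dox induces Pax7, whereas satellite cells express their own Pax7. Counts on the Pax7 symbol do not separate transcripts of the transgene from those of the cells' own gene. For chromatin, iPax7 cells 12 h and 24 h after withdrawal and myotubes made from iPax7 cells with horse serum were also used. So were C2C12 cells, a mouse myoblast line, as myoblasts, as myotubes, and as stable lines carrying a Flag control or Flag-tagged Pax7. The labels do not say whether replicates came from separate cultures or animals, so the p-values measure only the spread between these libraries.

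The core histones H2A, H2B, H3 and H4 make up the nucleosome around which DNA is wrapped, and H1 binds the linker DNA between nucleosomes. Most of the genes described here are transcribed mainly in S phase, when DNA is copied, and they are clustered in the genome. Their mRNAs have no introns as a rule and usually end in a conserved stem-loop bound by SLBP instead of a poly(A) tail, while some are also made in a polyadenylated form, chiefly in differentiated cells. Replacement variants such as H3.3 and H2A.Z come from polyadenylated, spliced genes outside these clusters and are made throughout the cell cycle.

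In GENCODE M1 on NCBIM37 (mm9), the Hist1 group had 55 genes on chromosome 13, 54 of them within 2.22 Mb (21807632 to 24026720), with Hist1h2al apart at 51298057 to 51298434. The Hist2 group had 10 genes on chromosome 3 (96023839 to 96082924), Hist3 had 3 on chromosome 11 (58762413 to 58770176) and Hist4 had 1, Hist4h4, on chromosome 6 (136752589 to 136752900). A stem-loop was found 24 to 61 bases after the coding end in 62 of the 69 genes, and 8 distinct versions of its 16 bases occurred, the most common in 39 genes. The sequences below are those of genes whose counts lead the results, read 5′ to 3′ in the sense strand with the stem-loop in capitals so that the stems of H1, H2A, H2B and H4 genes can be compared. The H4 genes shown have another stem than the rest.
Hist1h1b (chr13:21871706-21871721, minus strand): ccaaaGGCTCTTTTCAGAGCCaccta
Hist1h1c (chr13:23831381-23831396, plus strand): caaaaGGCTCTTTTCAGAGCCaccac
Hist1h2ae (chr13:23662537-23662552, minus strand): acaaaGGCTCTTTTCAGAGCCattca
Hist3h2a (chr11:58768674-58768689, plus strand): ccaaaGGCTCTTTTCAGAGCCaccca
Hist1h2bc (chr13:23776516-23776531, plus strand): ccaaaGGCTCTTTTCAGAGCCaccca
Hist1h4d (chr13:23673819-23673834, plus strand): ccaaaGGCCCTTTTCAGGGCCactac
Hist1h4h (chr13:23623327-23623342, plus strand): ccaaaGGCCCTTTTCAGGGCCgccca
Hist2h4 (chr3:96066862-96066877, minus strand): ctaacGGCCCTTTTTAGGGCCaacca
No stem-loop was found in 5 genes with a coding region (Hist1h2al, Hist1h4b, Hist1h4j, Hist2h2bb and Hist2h2be), and 2 members are pseudogenes with none to search from (Hist2h3c2 and Hist3h2bb-ps).

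Both the coverage of these genes and the share of their reads that could be counted were low. The libraries held 39010958 to 54674619 reads counted on genes, of which 585 to 3449 lay on the 69 histone genes. No read was counted in any of the 8 libraries for 22 members, 47 had at least 1 read, and 18 passed the filter on low counts and were tested (5 of H1, 3 of H2A, 4 of H2B, none of H3 and 6 of H4). The 29 members with reads that were not tested had 1 to 40 reads each over all libraries. Together they held 39, 27 and 85 reads in +Dox, 5 and 8 in -Dox, and 39, 26 and 12 in satellite cells. The number of members at 0 in every library of a condition was 26 in +Dox, 47 in -Dox and 36 in satellite cells, numbers that also depend on -Dox having 2 libraries and not 3. By library, 32, 33 and 35 members had a read in +Dox, 15 and 20 in -Dox, and 27, 23 and 20 in satellite cells. The filter keeps a gene that is high in a single condition, so counts over the 18 tested genes do not stand for all 69.

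Sequence shared between copies limits what could be counted, because reads that align to several places were set aside by the authors' counting. The share of a gene's 50-base stretches that occur once in the genome had a median of 97.7% for H1, 57.0% for H4, 52.8% for H2B, 41.2% for H3 and 33.0% for H2A. All 4 members with no unique stretch were at 0, and the 11 others with up to 25% unique had at most 3 reads over all libraries and none was tested. Of the 17 members with over 75% unique, 11 were tested. A low or 0 count for a core histone thus cannot be read as a low RNA level. The counting's entry for alignments that were not unique was 7.11 to 7.60% of the total tallied in the iPax7 libraries. In the satellite cell libraries it was 23.6, 30.1 and 30.7%. The entry may hold a read more than once, so it is not the share of reads set aside. Its part in the comparisons with satellite cells was not tested.

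**Figure D1:**
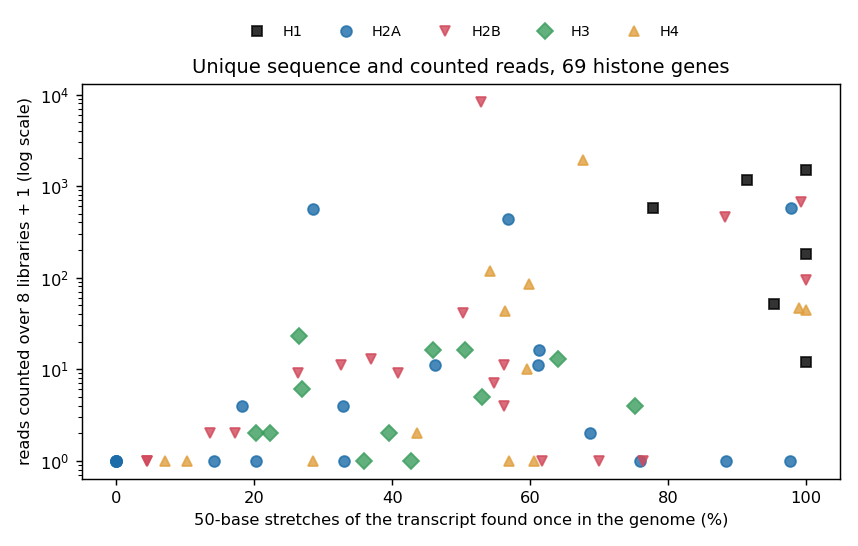
Each point is 1 of the 69 histone genes, with its type as the symbol, placed by the share of its 50-base stretches that occur once in the genome (x axis, percent) and its reads summed over the 8 libraries plus 1 (y axis, log scale). The H1 genes, which start at 77.8% unique, lie to the right, and no gene at or under 25% has more than 3 reads.

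Whether the libraries were enriched for polyadenylated RNA is not given in the sources used here, and the labels call the molecule total RNA. A list of 27 small RNAs that carry no poly(A) tail (such as Rmrp, Rpph1 and the spliceosomal Rnu11 and Rnu12) was therefore looked at: 18 are in the tables, 12 of them were at 0 in all libraries, and 3 were tested. Their summed level was 19.2 to 29.1 normalised counts in +Dox, 11.9 to 14.8 in -Dox and 68.4 to 193.5 in satellite cells, where a normalised count is a read count scaled for library size. Vaultrc5, a vault RNA, was lower in +Dox than in satellite cells (log2 fold change -4.42, standard error (SE) 1.38, adjusted p = 0.0273), and no other call was made for the 3. The gene models behind the counts are not given, so those of GENCODE M1 stand in for them here. Among the histone genes, the 21 whose GENCODE M1 model runs more than 100 bases past the stem-loop held 65.8% of the member reads. Their median was 12 reads a gene. The 41 whose model ends within 100 bases of the stem-loop held 26.4% with a median of 3. Hist1h2bc, whose 2-exon model reaches 7826 bases past the stem-loop, had 8301 of these reads. All these distances are along the genome with introns included, and the Hist1h2bc transcript itself is 736 bases long. Without it the other 20 genes with such models held 33.3% of the remaining reads and the 41 held 51.5%, so the order of the shares rests on that gene. The tables do not separate stem-loop ends from polyadenylated ends, so the 2 forms of RNA cannot be told apart, nor can fewer cells in S phase and less histone mRNA per cell.

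Tests between the conditions were by edgeR's quasi-likelihood method, where all 8 libraries share 1 estimate of the spread, and p-values were adjusted by Benjamini-Hochberg over the 14836 genes tested. A gene was called at an adjusted p under 0.05. Pax7, the induced gene, had 12759, 14130 and 11610 normalised counts in +Dox, against 220.6 and 269.5 in -Dox and 8504, 3926 and 5456 in satellite cells, so the labels of the iPax7 libraries hold.

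Between -Dox and +Dox no member was called, in a comparison that called 4.66% of all genes tested as higher in -Dox and 3.04% as lower. At an unadjusted p under 0.05, 1 member was higher (Hist1h2bc) and 3 were lower, against 11.3% and 10.3% of all genes. With DESeq2, 1 was higher (Hist1h2bc) and 3 were lower (Hist1h1e, Hist1h2ae and Hist1h4d), against 8.2% and 7.59% of all genes. The smallest adjusted p from edgeR was 0.0597. The count of calls thus depended on the tool, and with 18 genes tested it is too small to be set apart from the background share.

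Between +Dox and satellite cells 2 members were higher in +Dox (Hist1h1b and Hist1h4d), which is 11.1% of the 18 tested where 19.8% of all genes were called higher, and none was lower, where 25.1% of all genes were. None of the 18 was lower at an unadjusted p under 0.05 either, by edgeR (29.9% of all genes were) or at an adjusted p under 0.05 by DESeq2 (27.7% of all genes). Between -Dox and satellite cells 1 member was higher (Hist1h1b, 5.56% of the 18, against 18.1% of all genes) and none was lower, against 20.9% of all genes. At an unadjusted p under 0.05 none was lower by edgeR, where 27.2% of all genes were, and DESeq2 also called none lower, against 26.4% of all genes. Satellite cells thus had no tested histone gene that was called above either iPax7 condition.

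**Figure D2:**
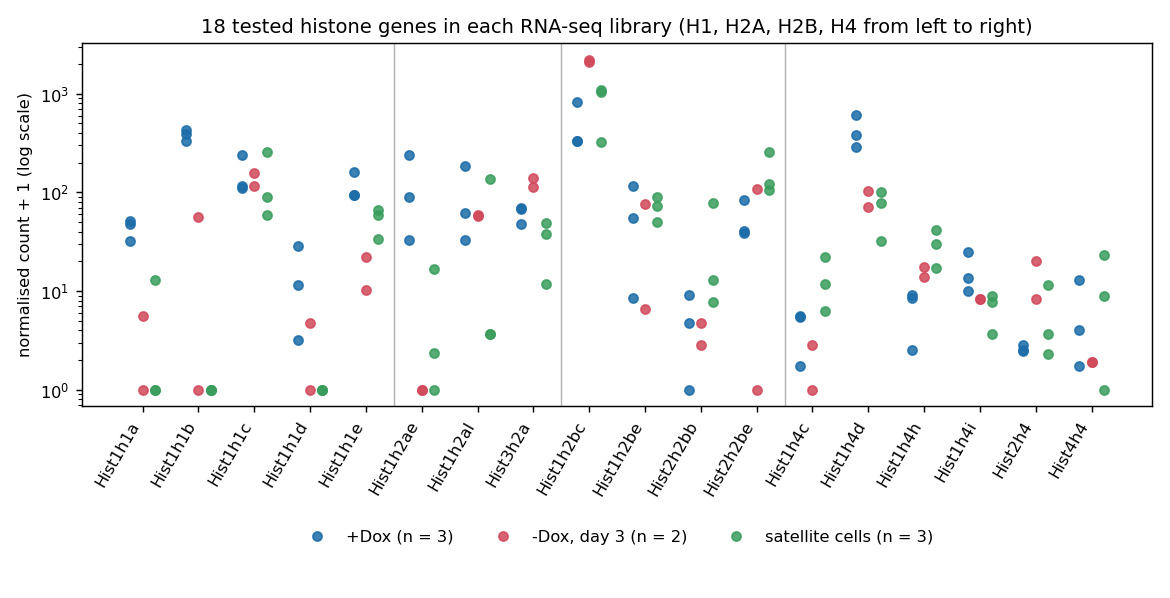
Normalised counts plus 1 (y axis, log scale) of the 18 tested histone genes (x axis, by type), with 1 point per library for +Dox (n = 3), -Dox (n = 2) and satellite cells (n = 3). Hist1h2bc is highest in the -Dox libraries at 2093 and 2202, and Hist1h1b lies between 331.3 and 428.9 in +Dox and at 0 in all satellite cell libraries.

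The linker histones, the type whose reads are best told apart, were highest in +Dox. Their summed level was 596.4, 641.3 and 886.9 normalised counts in +Dox, 175.5 and 189.2 in -Dox, and 321.2, 172.9 and 91.0 in satellite cells. All 3 +Dox libraries were above every library of the other conditions, by 3.88-fold against the mean of -Dox and 3.63-fold against that of satellite cells. Without Hist1h1b the other 5 summed to 265.2, 256.2 and 458.0 in +Dox, still above -Dox at 175.5 and 133.8 but overlapping satellite cells.

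Hist1h1b, which encodes the H1.5 subtype, carried much of this. It had 331.3, 385.1 and 428.9 normalised counts in +Dox, 0 and 55.4 in -Dox, and 0 in each satellite cell library. It was called higher in +Dox than in satellite cells (log2 fold change 11.62, SE 2.36, adjusted p = 0.00611). A fitted fold against 0 is not a measure of size, and set against a floor of 3 reads over the 3 satellite cell libraries the level was at least 288.1-fold higher. Against -Dox the log2 fold change was -3.78 (SE 1.73, adjusted p = 0.263), and the -Dox replicates differed widely between themselves. Its call between -Dox and satellite cells (adjusted p = 0.0330) came from the 60 reads of -Dox replicate 2, since replicate 1 had 0 like the satellite cell libraries, and it was past the threshold in 6 of the 13 alternatives that gave a p. The call was lost without -Dox replicate 2, without +Dox replicate 1 or 3, and without any 1 of the satellite cell replicates.

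None of the other linker genes was called by edgeR with all 8 libraries. Hist1h1c, for the H1.2 subtype, had 114.2, 110.3 and 240.4 normalised counts in +Dox, 154.4 and 116.3 in -Dox, and 255.4, 88.5 and 58.0 in satellite cells, and the conditions overlapped in every comparison. Hist1h1e, for H1.4, had 93.9, 93.3 and 159.4 in +Dox, 21.1 and 9.23 in -Dox, and 65.8, 57.6 and 33.0 in satellite cells. The -Dox libraries were the lowest of the 8 for Hist1h1e, 7.61-fold under the +Dox mean, with an adjusted p of 0.155 in edgeR (log2 fold change -2.92, SE 1.10). Over the 14 alternatives its adjusted p ran from 0.00961, in DESeq2, to 0.579. Hist1h1a, for H1.1, had 46.6, 50.4 and 31.0 in +Dox, at most 4.62 in -Dox and at most 12.1 in satellite cells. Hist1h1d, for H1.3, had 2.22 to 27.3 in +Dox, 0 and 3.69 in -Dox, and 0 in satellite cells, with an adjusted p of 0.0683 between +Dox and satellite cells. Hist1h1t, the testis subtype, had 11 reads, all in satellite cell replicate 2, and was not tested.

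Among H2A genes the summed level was 119.4, 219.2 and 505.4 normalised counts in +Dox, 170.9 and 196.6 in -Dox, and 209.3, 14.7 and 39.6 in satellite cells, so the conditions overlapped. None of the 3 tested genes was called by edgeR with all 8 libraries, and the order of the conditions was not the same in each. Hist1h2ae had 31.5, 88.1 and 239.5 in +Dox, 0 in both -Dox libraries, and 15.8, 1.34 and 0 in satellite cells. It was at least 86.7-fold lower in -Dox by the floor of 3 reads over the group, with an adjusted p of 0.0752 in edgeR, and was past the threshold in 3 of 14 alternatives, DESeq2 among them. The +Dox replicates themselves differed widely. Hist3h2a, from the small Hist3 group, had 47.3, 66.6 and 69.2 in +Dox, 113.0 and 137.5 in -Dox, and 47.4, 10.7 and 36.9 in satellite cells. Both -Dox libraries were above all others, with a log2 fold change of 1.04 (SE 0.99, adjusted p = 0.636) against +Dox and 1.98 (SE 1.00, adjusted p = 0.140) against satellite cells. In GENCODE M1 its model overlaps Trim17 on the same strand. The gene models used for the counts are not given, so whether reads there were left out as ambiguous is not known. Hist1h2al varied by library, at 31.5, 61.5 and 182.1 in +Dox, 57.9 and 57.2 in -Dox, and 135.6, 2.68 and 2.64 in satellite cells.

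H2B genes were dominated by Hist1h2bc, whose GENCODE M1 model includes another exon far downstream. It had 331.3, 328.8 and 821.4 normalised counts in +Dox, 2202 and 2093 in -Dox, and 1043, 324.4 and 1078 in satellite cells. Means with their SD were 493.8 ± 283.7 over 3 libraries, 2147 ± 77.3 over 2 and 814.8 ± 425.1 over 3. Both -Dox libraries were above all 6 others, 4.35-fold over the +Dox mean. The log2 fold change was 2.12 (SE 0.58), with an adjusted p of 0.0597 in edgeR, and 6 of the 14 alternatives tried put it under 0.05. It made up 78.4% of the member level in -Dox, 53.7% in satellite cells and 23.6% in +Dox, as shares of reads not corrected for length.

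The other H2B genes did not share that pattern. Without Hist1h2bc the summed H2B level was 111.9, 54.1 and 236.8 in +Dox, 11.03 and 189.2 in -Dox, and 396.3, 194.4 and 229.5 in satellite cells. Hist2h2be, from the Hist2 group, had 39.8, 37.8 and 82.0 in +Dox, 0 and 106.2 in -Dox, and 256.7, 105.9 and 120.0 in satellite cells. The satellite cell libraries lay above the +Dox libraries, but the log2 fold change of -1.60 had an SE of 1.41 (adjusted p = 0.383). Hist1h2be had 54.1, 7.41 and 113.8 in +Dox, 5.51 and 74.8 in -Dox, and 48.7, 72.4 and 89.7 in satellite cells, with all conditions overlapping. In both genes -Dox replicate 1 was at or near the bottom and replicate 2 was not. Hist2h2bb was highest in satellite cell replicate 1 at 77.7 and at or under 11.9 in every other library.

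No H3 gene passed the filter. The 12 H3 genes together had 8, 10 and 31 reads in +Dox, 1 and 0 in -Dox, and 16, 8 and 5 in satellite cells. The highest were Hist1h3e, with at most 13 reads in a library, Hist1h3a, with at most 6, and Hist1h3f, whose 12 reads were all in satellite cells. Differences among H3 genes were not detectable at this depth, and the single -Dox read does not show that H3 mRNA was absent.

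H4 genes were led by Hist1h4d, 1 of several genes for the same H4 protein. It had 290.7, 379.1 and 610.1 normalised counts in +Dox, 70.8 and 101.5 in -Dox, and 76.4, 30.8 and 100.2 in satellite cells. Means with their SD were 426.6 ± 164.9 over 3 libraries, 86.2 ± 21.8 over 2 and 69.1 ± 35.3 over 3. All +Dox libraries were above all others, while -Dox and satellite cells overlapped. The difference from satellite cells was called (6.17-fold, log2 fold change 2.62, SE 0.68, adjusted p = 0.0121) and was past the threshold in all 14 alternatives. The difference from -Dox was of like size (4.95-fold, log2 fold change -2.31, SE 0.78) but was not called by edgeR with all 8 libraries (adjusted p = 0.115). It was past the threshold in 2 of the 14 alternatives, DESeq2 among them. Summed over H4, the level was 306.5, 406.5 and 662.0 in +Dox, 114.9 and 132.9 in -Dox, and 180.4, 67.0 and 153.0 in satellite cells. That order rests on Hist1h4d, since the other 12 H4 genes summed to 15.8, 27.4 and 51.9 in +Dox, 44.1 and 31.4 in -Dox, and 104.0, 36.2 and 52.8 in satellite cells, and the conditions overlapped.

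The remaining H4 genes were low. Hist1h4h had 1.502, 7.41 and 8.20 in +Dox, 16.5 and 12.9 in -Dox, and 40.8, 16.1 and 29.0 in satellite cells, so +Dox was the lowest in contrast to Hist1h4d, with adjusted p-values of 0.674 and 0.187. Hist2h4 was 1.48 to 1.82 in +Dox, 19.3 and 7.38 in -Dox, and 1.32 to 10.5 in satellite cells (adjusted p = 0.35 between -Dox and +Dox). Hist1h4i, at 2.63 to 23.7, Hist1h4c, at 0 to 21.1, and Hist4h4, at 0 to 22.4, had no call in any comparison.

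**Figure D3:**
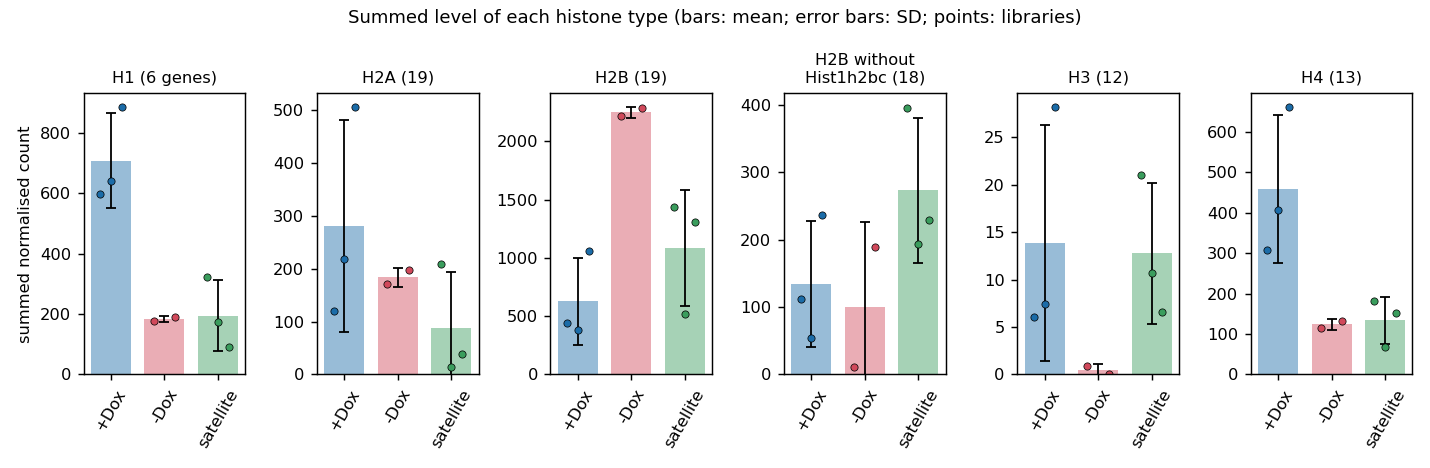
Summed normalised counts (y axis, from 0, with its own scale in each panel) of the histone genes of each type for +Dox, -Dox and satellite cells (x axis), with H2B also shown without Hist1h2bc. Bars are means of 3, 2 and 3 libraries, points are libraries and error bars are 1 SD, not drawn below 0. H1 is highest in +Dox, H4 is highest there through Hist1h4d, and H2B is highest in -Dox through Hist1h2bc.

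The sum over all members was 1472, 1657 and 3141 normalised counts in +Dox, 2675 and 2801 in -Dox, and 2171, 784.1 and 1597 in satellite cells. The +Dox mean was 1.38 times that of satellite cells, and 1.03 times without +Dox replicate 3, the highest of its condition. Leaving out Hist1h2bc turned the order of the iPax7 conditions, with 1140, 1328 and 2319 in +Dox and 473.3 and 708.0 in -Dox, which is 0.370 times the +Dox mean where it was 1.31 times with the gene. Linker histones made up 33.9% of the sum in +Dox, 6.66% in -Dox and 12.9% in satellite cells. For the 62 core genes without Hist1h2bc the means with their SD were 887.8 ± 477.0 over the 3 +Dox libraries, 408.3 ± 156.3 over the 2 -Dox libraries and 507.5 ± 268.9 over the 3 satellite cell libraries, and +Dox overlapped satellite cells but not -Dox.

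By cluster, Hist1 without Hist1h2bc had 1041, 1221 and 2143 in +Dox, 338.2 and 450.5 in -Dox, and 708.3, 333.8 and 341.6 in satellite cells, so the +Dox libraries were the highest. Hist2 had another order, with 48.8, 39.99 and 95.6 in +Dox, 21.1 and 119.1 in -Dox, and 350.2, 115.3 and 133.2 in satellite cells, where the satellite cell mean was 3.25-fold that of +Dox, and 2.02-fold without satellite cell replicate 1. Hist3 is Hist3h2a alone, as its other 2 members had no read, and was highest in -Dox. These sums rest on few genes, so the clusters cannot be told apart from their leading members. Scaling by total counts in place of the TMM factors would shift the median log2 fold change of all genes by -0.177 between -Dox and +Dox, from 0, and from -0.0919 to 0.267 between +Dox and satellite cells.

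Genes that act with these histones were compared as lists. Between -Dox and +Dox 3.04% of all genes were called lower and 4.66% higher. The median log2 fold change of 37 S phase genes, which copy DNA or make its precursors, was -2.54 where that of all genes was 0.00. Of the 37, 23 were lower in -Dox than +Dox and none was higher. Among them were Ccne2, a cyclin of S phase entry (-3.64, SE 0.55, adjusted p = 0.00358), Mcm5, a helicase subunit (-3.63, SE 0.43, adjusted p = 0.00108), and Uhrf1, which maintains DNA methylation (-3.42, SE 0.59, adjusted p = 0.00745). Against satellite cells 31 of the 37 were higher in +Dox and none was lower (median 3.06), where 19.8% and 25.1% of all genes were. Those higher were led by Tk1 (5.36, SE 1.03, adjusted p = 0.00279), Uhrf1 (4.85) and Tyms (4.48). Between -Dox and satellite cells 8 of the 37 were higher and 3 lower (median 0.36), where 18.1% and 20.9% of all genes were. The number higher was thus near the share of all genes. Rrm1 was higher (2.87, SE 0.24, adjusted p = 5.96e-05) and Pola1 lower (-1.96, SE 0.48, adjusted p = 0.0106). All 10 mitosis markers were also lower in -Dox than +Dox and higher in +Dox than satellite cells. The summed level of the S phase list was highest in +Dox. By mean so were Hist1h1a, Hist1h1b, Hist1h1c, Hist1h1d, Hist1h1e, Hist1h2ae, Hist1h2al, Hist1h4d and Hist1h4i. The tested members not highest there were Hist1h2bc, Hist1h2be, Hist1h4c, Hist1h4h, Hist2h2bb, Hist2h2be, Hist2h4, Hist3h2a and Hist4h4. By edgeR with all 8 libraries, only Hist1h1b and Hist1h4d were called higher in +Dox than satellite cells, and none higher than in -Dox.

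Of 19 genes that transcribe and process histone mRNA, 2 were lower in -Dox than +Dox and none was higher (median -0.49). Of all genes 3.04% were lower and 4.66% higher. Slbp, which binds the stem-loops printed above, had 6138, 6136 and 8101 normalised counts in +Dox, 3035 and 2917 in -Dox, and 12698.5, 10414 and 9713 in satellite cells. It was lower in -Dox than +Dox (log2 fold change -1.19, SE 0.26, adjusted p = 0.0254), and lower in +Dox than satellite cells (-0.69, SE 0.23, adjusted p = 0.0345). Satellite cells thus had the most Slbp and -Dox cells the least. Srrt, which couples RNA processing to the cap, was the only other one called between the iPax7 conditions (-1.16, SE 0.30, adjusted p = 0.0477). Npat, the coactivator that drives histone gene transcription at the start of S phase, had 4478, 4474 and 1921 in +Dox, 2265 and 1967 in -Dox, and 1568, 3230 and 2453 in satellite cells, with no call. Against satellite cells 5 of the 19 were higher and 3 lower in +Dox, where 19.8% and 25.1% of all genes were, with Lsm10, part of the U7 particle that cuts histone mRNA, higher (3.45, SE 0.41, adjusted p = 0.000221).

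Of 20 histone chaperones and their partners, 4 were lower in -Dox than +Dox and none was higher (median -0.73). Of all genes 3.04% were lower and 4.66% higher. Asf1b, the proliferation-linked carrier of H3 and H4, had 9356, 8970 and 10002 normalised counts in +Dox, 681.9 and 808.6 in -Dox, and 389.7, 250.7 and 440.5 in satellite cells (-3.66, SE 0.35, adjusted p = 0.000288 between -Dox and +Dox). Chaf1b, a subunit of the assembly factor CAF-1, fell with it (-2.60, SE 0.41, adjusted p = 0.00482), as did Nasp, an H3 and H4 carrier (-1.64, SE 0.31, adjusted p = 0.0115). Against satellite cells 8 of the 20 were higher in +Dox and 1 was lower, where 19.8% and 25.1% of all genes were. The lower one was Ubn1 of the HIRA complex (-3.61, SE 0.41, adjusted p = 0.000172).

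Of 11 genes for replacement variants, 3 were lower in -Dox than +Dox and none was higher (median -1.23), where 3.04% and 4.66% of all genes were. The 3 were Cenpa, the centromeric H3 (-3.88, SE 0.66, adjusted p = 0.00706), H2afj (-3.32, SE 0.79, adjusted p = 0.0343) and H2afz, for H2A.Z (-1.23, SE 0.31, adjusted p = 0.0426). Against satellite cells 5 were higher in +Dox and 1 lower, where 19.8% and 25.1% of all genes were. The lower one was H3f3b, for H3.3, which had 83446, 91512 and 144245 normalised counts in +Dox, 54518 and 56846 in -Dox, and 207414, 163079 and 182048 in satellite cells (-0.79, SE 0.25, adjusted p = 0.0297). Reads on this gene thus outnumbered those on all 69 replication-dependent genes together in every library, as read numbers not corrected for length.

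**Figure D4:**
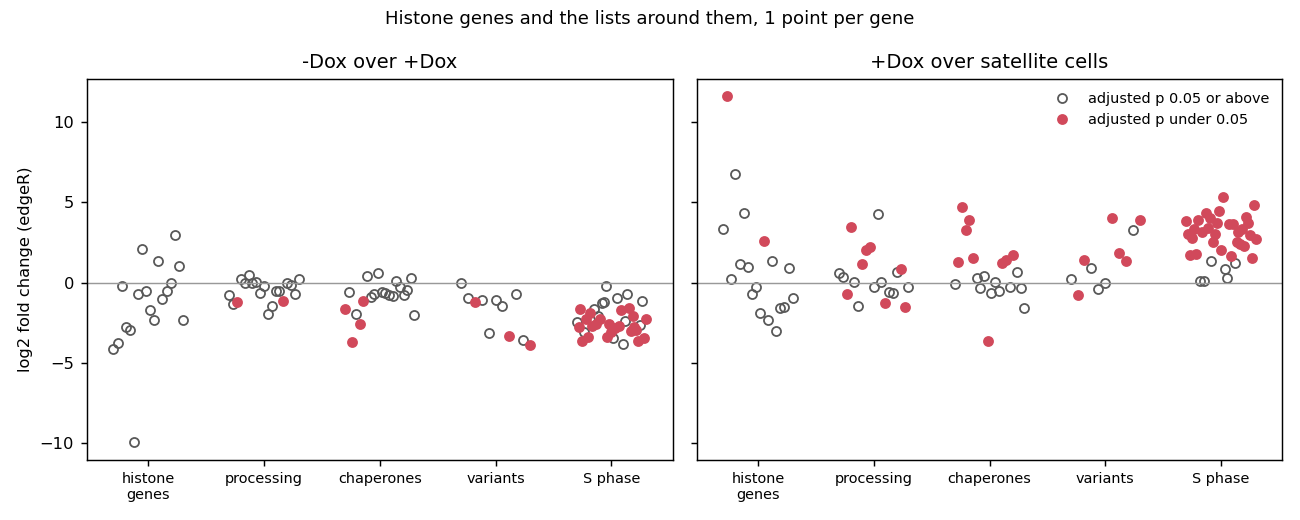
Log2 fold changes (y axis) of the tested histone genes and of the processing, chaperone, replacement variant and S phase lists (x axis), for -Dox over +Dox and for +Dox over satellite cells, with 1 point per gene, filled where the adjusted p is under 0.05. The S phase genes lie below 0 in the first panel (median -2.54) and above 0 in the other (median 3.06), while the histone genes lie on both sides.

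Markers of other cell types differed between the conditions too. The summed level of 8 myocyte genes was 8456 to 10001 normalised counts in +Dox, 1914158 to 1976696 in -Dox and 10766 to 17151 in satellite cells, and all 8 were higher in -Dox than in either other condition. In satellite cells 6 endothelial genes summed to 13945 to 21354, against at most 166.6 in an iPax7 library, 6 blood genes to 1609 to 3940 against at most 471.0, and 6 mesenchymal genes to 43545 to 64326 against at most 9745. All 10 satellite cell markers were detected in satellite cells. The part of these cells in the histone values was not tested.

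Chromatin at the histone genes was read from the peak lists deposited for these cells and for the other chromatin conditions. The lists hold open regions (ATAC-seq), histone marks and Pax7 binding (ChIP-seq). Replicates were merged before peaks were called for ATAC-seq and the marks, so there is no replicate spread for these counts and no test was made. A peak lay within 1 kb of the start of 60 of the 69 genes (87.0%) in each of +Dox, 12 h, 24 h and 3 days after withdrawal, against 62.1 to 66.6% of 18955 other protein-coding genes. The same 60 had one in +Dox and at 3 days, and since neighbours share peaks these were 47 distinct peaks in +Dox and 45 at 3 days. The 9 without were Hist1h1t, Hist1h2aa, Hist1h2al, Hist1h2ao, Hist1h2ap, Hist1h2ba, Hist1h2bq, Hist1h2br and Hist1h4m. Unique 50-base stretches made up 0% of the transcripts of Hist1h2ao and Hist1h2ap, 4.47% for Hist1h2bq and Hist1h2br and 10.2% for Hist1h4m. They made up 28.57% for Hist1h2al, 61.76% for Hist1h2ba, 97.65% for Hist1h2aa and 100% for Hist1h1t. A missing peak in shared sequence cannot be read as closed chromatin, and the part of shared sequence in the peak lists was not tested. Of the 22 members with no read, 15 had an open region at the start in +Dox, as had 45 of the 47 with reads. In satellite cells 56 had one (81.2%, against 59.4% of other genes), and likewise in iPax7 myotubes (81.2%, against 62.7%).

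The active mark H3K27Ac differed most between the iPax7 conditions. It was found at 58 members (84.1%) in +Dox and at 40 (58.0%) in -Dox, against 48.6% and 45.6% of other genes. These were 86 and 47 distinct peaks. All 40 were among the 58, and the 18 with a peak in +Dox alone were 5 H2A, 4 H2B, 5 H3 and 4 H4 genes, while the same 5 H1 genes had a peak in both. Of these 18, 17 lie in Hist1 and 1 in Hist2. Hist1h1b, Hist1h2bc and Hist1h4d had an H3K27Ac peak in both conditions, so the presence of a peak did not follow their counts. The +Dox list is also the larger, covering 73.1 Mb against 49.2 Mb, and the part of peak calling depth was not tested. H3K4me3, the mark of active starts, was at 60 and 59 members in +Dox and -Dox, and H3K4me1 at 59 and 57. The repressive mark H3K27me3 was at 3 members (4.35%, against 21.3% of other genes) in +Dox, which were the 3 Hist3 genes, and at those and Hist1h2al in -Dox (5.80%, against 19.5%), but within 0.5 kb it was at 1 member in each.

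**Figure D5:**
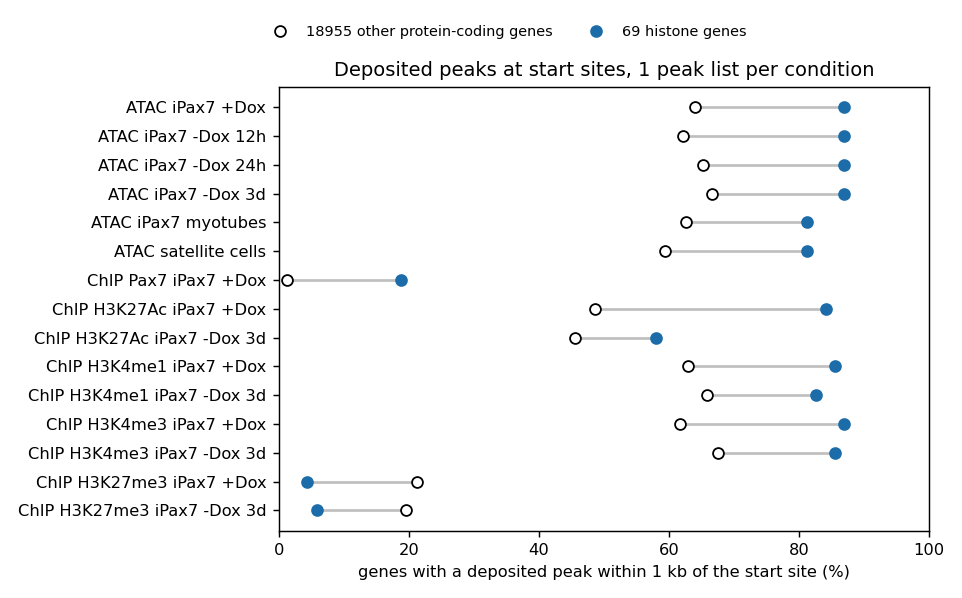
Share of genes with a deposited peak within 1 kb of the start (x axis, percent) for the 69 histone genes (filled) and 18955 other protein-coding genes (open), with 1 line for each peak list of iPax7 and satellite cells (y axis). Histone genes are above the other genes for open chromatin, Pax7 and the active marks and below them for H3K27me3, and their H3K27Ac share is 84.1% in +Dox and 58.0% in -Dox.

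Promoters of the members, taken as 250 bases before to 50 after the start in GENCODE M1, were searched on both strands for the letters TATAAA of the TATA box, for CCAAT, to which the factor NF-Y binds, and for the octamer ATTTGCAT, to which Oct-1 binds, and for paired homeodomain half-sites, TAAT followed by ATTA after 2 or 3 bases. TATAAA was in 55.1% of the 69, against 13% of 18955 other promoters, CCAAT in 85.5% against 38.4%, and ATTTGCAT in 23.2% against 1.66%. The types differed: CCAAT was in every H1, H2A and H2B promoter but in 30.8% of those of H4, and ATTTGCAT was in 36.8% of H2A and 47.4% of H2B promoters and in none of the others. No member promoter held either paired form, which 0.396% and 0.412% of other promoters did. The promoters of the genes that led their types are given here, in the sense of the gene with matches to the TATA, CCAAT-box and octamer letters, on either strand, in capitals.
Hist1h1b (chr13:21872445-21872744, minus strand): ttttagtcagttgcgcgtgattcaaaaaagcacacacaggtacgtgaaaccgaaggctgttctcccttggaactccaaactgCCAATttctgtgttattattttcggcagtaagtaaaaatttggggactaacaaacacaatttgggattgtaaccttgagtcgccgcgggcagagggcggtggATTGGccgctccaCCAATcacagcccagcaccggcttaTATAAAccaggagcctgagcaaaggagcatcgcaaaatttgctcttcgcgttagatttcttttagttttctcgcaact
Hist1h2bc (chr13:23775818-23776117, plus strand): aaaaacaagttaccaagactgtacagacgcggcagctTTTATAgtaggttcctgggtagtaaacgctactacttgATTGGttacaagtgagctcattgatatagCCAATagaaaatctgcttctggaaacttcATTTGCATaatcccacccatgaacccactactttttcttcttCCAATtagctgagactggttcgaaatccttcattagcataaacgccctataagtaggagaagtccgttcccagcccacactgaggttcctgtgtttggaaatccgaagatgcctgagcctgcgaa
Hist1h4d (chr13:23673217-23673516, plus strand): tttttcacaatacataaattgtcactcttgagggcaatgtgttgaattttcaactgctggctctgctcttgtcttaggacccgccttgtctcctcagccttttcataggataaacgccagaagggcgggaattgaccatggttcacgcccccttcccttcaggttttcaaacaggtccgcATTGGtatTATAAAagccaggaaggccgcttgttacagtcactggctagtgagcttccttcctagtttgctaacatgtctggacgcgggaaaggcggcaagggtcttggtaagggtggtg
Hist1h1b has CCAAT 3 times and TATAAA once, and Hist1h4d has each of TATAAA and CCAAT once. Hist1h2bc has CCAAT and the octamer. Its only TATAAA match is on the other strand, close to the start of the divergent neighbour Hist1h2ac (23775817, minus strand). Matches on the other strand can thus belong to a neighbour, and the TATAAA shares above are not shares of the members' own TATA boxes alone.

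Pax7 peaks of +Dox cells, which the authors kept when found in at least 2 +Dox replicates and in no -Dox replicate, lay within 1 kb of the start of 13 members (18.8%, against 1.32% of other genes). Because the genes are packed, these were 8 distinct peaks, and 9 peaks lay within 5 kb of the annotated starts of 24 members. All 9 overlapped an ATAC-seq peak in +Dox and at 12 h and 24 h after withdrawal, 8 did so at 3 days and 7 in satellite cells. H3K27Ac overlapped 7 of them in +Dox and 3 in -Dox, and H3K27me3 overlapped none. Their median width was 530 bases (313 to 1131), against 664 for the 2446 other Pax7 peaks.

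Pax7 has a homeodomain and a paired domain, and the paper found motifs of both in its Pax7 binding sites. Of these, only the homeodomain core TAAT and its paired half-sites were searched for here. A peak without TAAT may thus still hold a paired domain site. The central 300 bases of the 9 peaks held TAAT in 7 (77.8%, against 82.8% of the other peaks) and CCAAT in 77.8% against 35.6%, and neither paired form was found, which 1.02% and 1.68% of other peaks held. The central parts of the peak between Hist1h2ak and Hist1h2bn, where the letters of a TAAT and of histone promoter motifs lie side by side, and of the peak upstream of Hist1h4a, which has no TAAT, are printed on the plus strand with matches to the TAAT core and to the CCAAT-box and TATA letters, on either strand, in capitals.
Hist1h2ak and Hist1h2bn (chr13:21845642-21845941, plus strand): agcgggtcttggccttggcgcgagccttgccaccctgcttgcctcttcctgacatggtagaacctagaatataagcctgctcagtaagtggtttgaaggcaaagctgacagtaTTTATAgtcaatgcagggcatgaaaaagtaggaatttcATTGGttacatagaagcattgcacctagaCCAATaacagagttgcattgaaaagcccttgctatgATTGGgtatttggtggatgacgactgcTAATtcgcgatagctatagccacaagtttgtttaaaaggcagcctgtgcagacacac
Hist1h4a (chr13:23853420-23853719, plus strand): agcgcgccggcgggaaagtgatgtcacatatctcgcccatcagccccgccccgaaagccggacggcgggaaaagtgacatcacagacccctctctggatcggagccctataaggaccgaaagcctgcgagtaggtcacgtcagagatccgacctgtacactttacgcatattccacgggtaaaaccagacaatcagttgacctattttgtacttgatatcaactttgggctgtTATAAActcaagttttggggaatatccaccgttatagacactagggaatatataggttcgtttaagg
In the first peak 83.2% of the 50-base stretches occur once in the genome, and in the peak over Hist1h4f 87.5% do, while the other 7 are fully unique.

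Members near a Pax7 peak were mostly not measurable. Of the 24, 5 were tested (Hist1h1a, Hist1h1d, Hist1h4d, Hist1h4h and Hist2h2be), 5 had no read in any library (Hist1h2af, Hist1h4b, Hist1h4f, Hist1h4k and Hist2h2ab), and the other 14 had at most 16 reads in a library. Those 14 were Hist1h2ad, Hist1h2ai, Hist1h2ak, Hist1h2bf, Hist1h2bg, Hist1h2bl, Hist1h2bm, Hist1h2bn, Hist1h3a, Hist1h3d, Hist1h3g, Hist1h3h, Hist1h4a and Hist2h2ac. Of the 45 members with no such peak 13 were tested. Of the 5 tested ones near a peak, Hist1h1a, Hist1h1d and Hist1h4d had their highest mean in +Dox, Hist1h4h had its lowest mean there, and Hist2h2be its highest in satellite cells. The closest peak to Hist1h4d (chr13:23676894-23677423), 3427 bases from its start, lies inside the gene model of Hist1h2be, over its stem-loop. Hist1h2be, a tested gene, is not among the 24 because distances were taken from annotated starts, and that of its 2-exon model is at 23712993. Its promoter and start-site peaks were also read at that start. Hist1h1b, the other gene called above satellite cells, and Hist1h2bc had no Pax7 peak within 5 kb.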

How the data were processed

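RNA-seq, ATAC-seq and ChIP-seq files of mouse iPax7 cells, satellite cells and C2C12 myoblasts were used. For RNA-seq the authors deposited unscaled HTSeq-count counts on gene symbols, 1 table a replicate. The submitters' processing notes name HTSeq 0.6, TopHat2 2.0, Bowtie2 2.2 and mm9. Library preparation, strandedness and the gene models used for counting are not given for RNA-seq in the sources used here. Reads of a gene and of an overlapping gene on the other strand thus cannot be told apart. The GENCODE M1 models used here may differ from those counted on. The 5 summary entries that name no gene were left out of library sizes. Ambiguous reads were 1.51 to 2.32% of the total tallied, and reads on no gene were 0.00200 to 0.00309%. Why so few lay on no gene is not given in the sources used here, and its part in the histone counts was not tested. The authors deposited ATAC-seq peaks as MACS2 wrote them from merged replicates, with a score, a fold-enrichment signal and −log10 p and q values, and ChIP-seq peaks called with Qeseq as positions alone. Of the peak lists only positions were used, on mm9.

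To normalise, each count was scaled from its library's TMM effective size to the geometric mean of all 8 sizes, so that 1 read is 0.741 to 1.34 normalised counts. Tests used edgeR 4.0.16 (R 4.3.3, quasi-likelihood, filterByExpr, 1 mean a condition, all 8 libraries), with Benjamini-Hochberg adjustment over 14836 genes. Standard errors are the log2 fold change over the square root of F and are approximate. DESeq2 1.42.0, other scalings and filters, a replicate block and fits without 1 replicate were alternatives. The code was tested on simulated data. Unique 50-base stretches, stem-loops (16 bases that form 6 pairs, at most 4 differences from a consensus, within 150 bases after the coding end) and promoters were read from the NCBIM37 genome with GENCODE M1 gene models, and sequences from that genome. The floor of 3 counts covers counting error only.

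The histone genes, the gene lists and the tests were chosen with earlier results of these data known. Named with values were members called without overlap between groups and a mean of at least 50 normalised counts, the 3 highest members of each type and members within 5 kb of a Pax7 peak. The other tested members, Hist1h1t and the genes of the peak counts were named after their values were seen. In each list they were Slbp, Npat and up to 3 called genes with the largest fold change.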

Additional observations from a re-analysis of the deposited data

How the results depend on the processing

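Low counts left 51 of 69 members untested. Hist1h1b and Hist1h4d stayed above satellite cells in +Dox under all 14 alternatives, with adjusted p from 7.68e-08 to 0.0204 and from 0.000171 to 0.0458. Members higher in -Dox than +Dox became 1, Hist1h2bc, with no filter (3.85% of all genes called), with the replicate block (3.21%), with only the conditions compared (8.51%) and with DESeq2 (8.2%), and 0 to 1 when 1 replicate was left out (without +Dox replicate 3, 3.93%, and without satellite cell replicate 2, 4.92%). Its adjusted p ran from 0.00797 to 0.241. Members lower became 2 with only the conditions compared (7.75% of all genes), 3 with DESeq2 (7.59%) and 0 to 1 with a replicate left out (Hist1h1b without -Dox replicate 2, 0.791%, and Hist1h2ae without satellite cell replicate 1, 4.3%). Members higher in +Dox than satellite cells were 2 to 4, with Hist1h2ae and Hist1h2al added without satellite cell replicate 1 (21.7%) and Hist1h1a without satellite cell replicate 2 (18.4%), and Hist1h2ae added with DESeq2 (20.8%). Between -Dox and satellite cells the higher were 0 to 1 with a replicate left out, with Hist1h2al in place of Hist1h1b without satellite cell replicate 1 (20.5%), and 0 with only the conditions compared (17.5%), and the lower 0 to 1 (Hist2h2be, without -Dox replicate 2, 10.2%). The cause was not tested.

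Without Hist1h2bc the ratios of summed levels were 0.370 for -Dox over +Dox, 2.27 for +Dox over satellite cells and 0.841 for -Dox over satellite cells, and with all members and a replicate left out they were 1.14 to 1.75, 1.03 to 1.75 and 1.45 to 2.30. With a 0.5 kb window, H3K4me1 was at 45 members in -Dox and H3K27me3 at 1 in -Dox and at 1 in +Dox, and H3K4me1 at 36 in C2C12 cells with the Flag control. With 2 kb, H3K4me3 was at 65 in C2C12 cells with the Flag control and at 65 with Pax7-Flag. Over all members, 60.3% of 50-base stretches were unique and 68.2% of 100-base stretches. Same-numbered replicates of different conditions correlated from -0.0398 to 0.0272, so the numbers do not pair the samples. With the block, -Dox against satellite cells called Hist1h2bc (adjusted p = 0.0256) in place of Hist1h1b (adjusted p = 0.127). The sums without Hist1h1b and without Hist1h4d and the read shares without Hist1h2bc were chosen after seeing the data. So were the Hist2 ratio without a library and the ratio over all members without +Dox replicate 3.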

Other observations

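In C2C12 cells, a mouse muscle line, H3K27Ac lay within 1 kb of the start of 59 of the 69 histone genes with the Flag control (54.6% of other genes) and of 61 with Pax7-Flag (55.6%). Open chromatin was at 59 (56.2% of other genes) and 60 (57.3%) of them, at 54 in C2C12 myoblasts (45%) and at 54 in C2C12 myotubes (54.4%). These lists have no replicate spread, and the H3K27Ac lists cover 91.2 and 122.1 Mb, more than that of iPax7 cells in Dox.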
